A study of Sedum plumbizincicola and Sedum alfredii with 13 samples.

Results

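Shoots of Sedum plumbizincicola that had received 10 µM CdCl2 for 3 days were set against shoots of the same species that had received 0 µM, to describe how far the shoot transcriptome moved with cadmium (Cd). The comparison took the 4 Illumina libraries that the labels give as Sedum plumbizincicola shoot, of 13 libraries in the series, 12 of which had a table of expression values. Each dose had 2 libraries, lettered A and B. The labels give no genotype and do not say whether a library came from 1 plant or several, so p-values measure only the spread between these libraries. The rest of the series comprised the roots of the same species at both doses (2 libraries each), roots and shoots of a non-hyperaccumulating Sedum alfredii (1 library for each organ and dose), and a 454 library of pooled root and shoot that was not analysed here.

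Sedum plumbizincicola is a hyperaccumulator, a plant whose leaves store Cd and zinc at concentrations that poison most species. In such plants, metal taken up by the root is loaded into the xylem, carried upward with the water stream and sequestered in the vacuoles of leaf cells, away from the enzymes of photosynthesis. Hyperaccumulators are also known for genes of metal transport that are strongly expressed whether or not extra metal is supplied, and the shoot is where most of the metal ends up. The deposited tables identify assembled transcript clusters, here called transcripts, only by a component number (c) and a gene number within it (g). The files do not pair these IDs with gene names or sequences, so no transcript below could be given a function.

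The 2 Cd-treated shoot libraries held 1962230 and 1861294 reads (A and B) and the untreated ones 2125017 and 1983167, so that 3 reads, the limit that a count of 0 allows, stood for 1.41 to 1.61 CPM, the read count scaled to a fixed library size. Organ labels were checked without names, from 48 transcripts that had at least 50 reads in each untreated shoot library and 0 in the untreated roots. These held 10996 and 9387 reads in Cd-treated shoots and 14 and 13 reads in Cd-treated roots. The 92 transcripts chosen the opposite way, present in untreated roots and at 0 in untreated shoots, held 3 and 17 reads in Cd-treated shoots. Libraries of one dose differed by more than sampling noise, with a chi-square per degree of freedom of 2.77 between the Cd-treated pair and 4.26 between the untreated pair. The same statistic was 2.55 between the doses of letter A and 2.35 between the doses of letter B. These dose pairs shared a letter and the pairs of one dose did not, so a difference between letters would enter only the latter. Libraries that differed in both letter and dose were not compared in this way.

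No transcript was called changed by Cd in the shoot when edgeR compared the doses as groups. Of 19935 transcripts tested with its quasi-likelihood test, 0 (0%) passed a Benjamini-Hochberg adjusted p of 0.05, and the smallest adjusted p was 0.222. At an unadjusted p under 0.05 there were 469 transcripts (2.35%), 241 of them higher and 228 lower in Cd-treated shoots. By DESeq2 the count at an adjusted p under 0.05 was 1, and by limma on log2(TPM + 1) it was 0. With the letter as a replicate block in edgeR it was 5, and with that block in the 4 shoot libraries alone it was 116. The labels do not say that a letter marks shared plants or a shared batch, so the count of 0 holds for the comparison without a block. In whole shoots, fewer cells of a type and less RNA per cell cannot be told apart. The 46649 transcripts with too few reads to test held 1.60% and 1.79% of the reads of Cd-treated shoots and 1.56% and 1.60% of those of untreated shoots.

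A missing call does not by itself show a steady level, so the size of change that the data leave possible was bounded for each transcript. A change was counted as bounded when 2 one-sided tests, on the same edgeR fit and adjusted over all transcripts, placed the fold change inside the limits. A change of 2-fold or more in either direction was excluded for 10662 transcripts (53.5%), and a change of 4-fold or more for 17570 (88.1%). A change of 1.5-fold or more was excluded for 0 transcripts (0%). Limits between 1.5-fold and 2-fold were not tested.

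The bounds tightened steeply with abundance. Among the 6626 transcripts under 10 CPM, 261 (3.94%) had a 2-fold change excluded, and 4331 (65.4%) a 4-fold change. Between 10 and 30 CPM the 2-fold change was excluded for 3708 of 6059 (61.2%). Between 30 and 100 CPM the number was 4900 of 5325 (92.0%), between 100 and 1000 CPM it was 1698 of 1826 (93.0%), and at 1000 CPM and above it was 95 of 99 (96.0%). The far end of the 95% interval, in whichever direction it lay further from 0, had a median size on the log2 scale of 1.60 in the lowest class, then 0.95, 0.67, 0.58 and 0.61. Past 100 CPM more reads brought no tighter bound, and the median standard error of the log2 fold change was 0.21 at 100 to 1000 CPM and 0.23 at 1000 CPM and above. Of the 7250 transcripts at 30 CPM or more, 6693 (92.3%) had a 2-fold change excluded and for 33 a 4-fold change was not excluded. At the other end, 1115 tested transcripts had no interval, because 779 had no shoot read and 336 had reads at 1 dose only.

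These bounds rest on both libraries of each dose. Without 1 shoot library the number with a 2-fold change excluded dropped to 4228 (Cd-treated A left out), 5439 (Cd-treated B), 6159 (untreated A) or 5823 (untreated B).

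**Figure D1:**
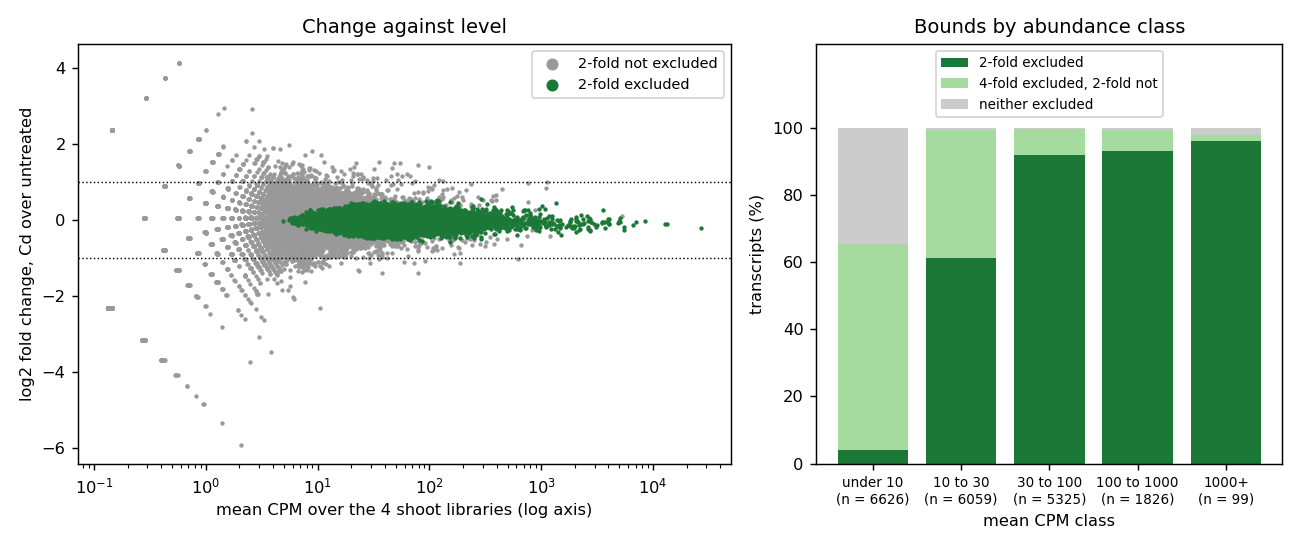
Left, the log2 fold change with Cd (vertical axis) of each shoot transcript against its mean level (horizontal log axis, CPM), coloured green where a 2-fold change was excluded, with dotted lines at 2-fold. Right, the percent of each abundance class with a 2-fold change excluded, with a 4-fold but not a 2-fold change excluded, or with neither; the 2-fold share is 3.94% in the lowest class and 96.0% in the highest.

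Over all tested transcripts, differences between doses within a letter were no larger than those between letters within a dose. A difference between letters enters only the latter, so the comparison does not show how dose compares with the spread between replicates. Deviations of same-letter libraries correlated at 0.22 between the shoot doses over all tested transcripts. Over the 4910 at 30 CPM or more in both organs the correlation was 0.44. The median absolute log2 ratio over all tested transcripts was 0.23 between the doses of letter A and 0.24 between those of letter B. Between letters it was 0.26 in Cd-treated and 0.29 in untreated shoots. In the class of 30 to 100 CPM the same measure was 0.18 and 0.18 between doses, against 0.21 between letters in Cd-treated and 0.24 in untreated shoots. The class at 1000 CPM and above stood apart, with 0.11 between the doses of letter A and 0.26 between those of letter B, beside 0.21 and 0.19 between letters in Cd-treated and untreated shoots.

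The change seen in letter A barely carried over to letter B. Across the 19935 transcripts, which are not independent replicates, the log2 ratios of the 2 letters had a Pearson r of 0.03 and a Spearman rho of 0.04, and the sign was shared by 52.1%. The 4 libraries are all different here, so the letters share no control. In the 99 transcripts at 1000 CPM and above, r was 0.22 while rho was -0.04.

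How reads were divided among abundance classes also stayed close. The 99 transcripts at 1000 CPM and above took 26.1% (exact binomial 95% interval 26.1 to 26.2) and 23.9% (23.85 to 23.98) of the reads in Cd-treated shoots, against 25.1% (25.0 to 25.2) and 26.6% (26.5 to 26.6) in untreated shoots. The doses overlapped, and the libraries of each dose lay further apart than their counting intervals, which cover counting error only. The 6626 transcripts under 10 CPM took 2.62% and 2.86% in Cd-treated shoots, against 2.68% and 2.67% in untreated shoots.

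The most abundant transcripts were ranked by deposited TPM (a level scaled for transcript length and library size), averaged over the 4 shoot libraries. The first by a wide margin was c42708_g2, with 52954 and 51341 TPM in Cd-treated shoots against 59917 and 56664 TPM in untreated shoots. It ranked first in all 4 libraries, and both Cd-treated values lay below both untreated ones. Its log2 fold change was -0.21 (SE 0.24, 95% interval -0.73 to 0.31) with an edgeR adjusted p of 1, and the test against a 2-fold change gave an adjusted p of 0.00948. It alone supplied 2.36% and 2.16% of the reads of Cd-treated shoots and 2.57% and 2.51% of those of untreated shoots.

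The second, c41509_g2, had 19042 and 14524 TPM in Cd-treated shoots against 16279 and 19305 TPM in untreated shoots. The third, c27872_g2, had 17065 and 16586 TPM in Cd-treated shoots against 14079 and 19904 TPM in untreated shoots. In both, the doses overlapped and the gap between letters was wider than the gap between dose means, which for c41509_g2 were 16783 ± 3195 TPM in Cd-treated and 17792 ± 2140 TPM in untreated shoots (SD, n = 2 each). The fourth, c42588_g2, had 9724 and 12801 TPM in Cd-treated shoots against 7257 and 13032 TPM in untreated shoots. This transcript carried the widest upper limit among the 10, a log2 fold change of 0.81, and its untreated libraries were further apart than any dose difference. The level of this transcript was far lower in the other species, at 10.7 and 19.3 TPM in the Cd-treated and untreated Sedum alfredii shoot.

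The remaining 6 had mean levels of 5856 to 9224 TPM. For all 10, a 2-fold change was excluded, with adjusted p-values of the test between 0.00431 and 0.0186, and a 1.5-fold change was excluded for 0. Their log2 fold changes ran from -0.23 to 0.26, and all 95% intervals lay between -0.75 and 0.81. In normalised CPM, the scale of the fit, 0 of the 10 were higher in both Cd-treated libraries than in both untreated ones. The reverse held for 4, c42708_g2, c43021_g1, c39321_g2 and c26562_g1, beside 14.3% of all tested transcripts that did not overlap with Cd lower and 13.6% with Cd higher. In TPM the values of c43021_g1 overlapped, at 9469 and 8646 in Cd-treated shoots against 9280.2 and 9503 in untreated shoots.

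One pair among the 10, c27872_g1 and c27872_g2, belonged to 1 component, and reads of near-identical copies may have been divided between them. The smaller of the pair, c27872_g1, had 6538 and 7191 TPM in Cd-treated shoots against 4488 and 7055 TPM in untreated shoots. Its log2 fold change of 0.26 was the highest of the 10, but it was -0.10 without untreated library A and 0.76 without untreated library B. The value of c42588_g2 also turned, at 0.17 with all libraries, -0.27 without untreated A and 0.83 without untreated B. For c27872_g2 it was -0.04 with all libraries and 0.29 without untreated B.

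Most of the 10 were shoot transcripts. In roots, 9 of them averaged between 2.23 and 151 TPM at either dose. The exception was c26562_g1, at 5679 and 5430 TPM in Cd-treated shoots and 6393 and 5923 TPM in untreated shoots, and at a mean of 2687 TPM in Cd-treated and 1935 TPM in untreated roots.

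**Figure D2:**
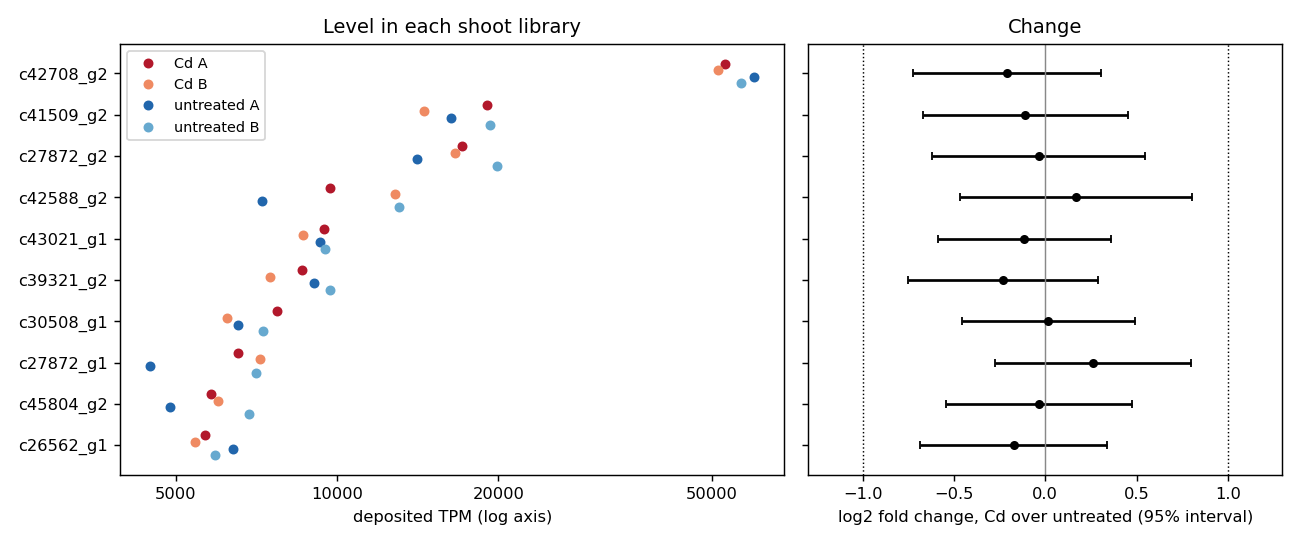
Left, the deposited TPM (log axis) of the 10 most abundant shoot transcripts in each Cd-treated and untreated library. Right, their log2 fold changes, Cd-treated over untreated, with 95% intervals and dotted lines at 2-fold; every interval lies between -0.75 and 0.81.

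The 100 most abundant transcripts came from 89 components and took 23.9% and 21.7% of the reads in Cd-treated shoots against 22.5% and 24.3% in untreated shoots. A 2-fold change was excluded for 94 and a 4-fold change for 96, 0 were called, and 1 had an unadjusted p under 0.05. Their log2 fold changes ran from -0.38 to 0.998 with a median of -0.06, beside a median of -0.01 over all tested transcripts. Membership was steady too, with 85 of the 100 among the first 100 in each of the 4 libraries taken alone.

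Of the 6 for which a 2-fold change was not excluded, c33560_g7 was the one with an unadjusted p under 0.05. It had 742 and 924 reads in Cd-treated shoots against 548 and 560 reads in untreated shoots. Its log2 fold change was 0.65 (SE 0.25, 95% interval 0.11 to 1.19), with an edgeR adjusted p of 1. A further 4 of the 6 had more reads in roots than in shoots, and their untreated root libraries lay far apart. One of these, c24187_g1, had 787 and 694 reads in Cd-treated shoots and 564 and 686 in untreated shoots, beside 7091 and 9381 reads in Cd-treated roots and 18540 and 3624 in untreated roots. Its 95% interval ran from -2.23 to 2.83 on the log2 scale in the fit of roots and shoots, and from -0.12 to 0.75 in a fit of the 4 shoot libraries alone. That fit excluded a 2-fold change for 96 of the 100, and for 2 of these 6.

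The same 100 transcripts can be set beside the shoots of Sedum alfredii, where 1 library per dose allows no test. Their median absolute log2 ratio between doses was 0.78 there, against 0.15 for letter A and 0.26 for letter B in Sedum plumbizincicola. Over the 14791 tested transcripts with at least 10 reads in a Sedum alfredii shoot library, it was 0.33 there, against 0.22 for letter A and 0.23 for letter B. In the Sedum alfredii pair 31 of the 100 differed by 2-fold or more, while 2 did so in letter A and 0 in letter B. Over the 14791 these shares were 9.97%, 3.31% and 3.12%. Unlike the 14791, the 100 were not filtered on Sedum alfredii reads, and some had few there. Among them, c42588_g2 had 4 reads in the Cd-treated and 9 in the untreated Sedum alfredii shoot library, and c33560_g7 had 0 and 1. The Sedum alfredii median was -0.78, beside -0.09 over the 14791, so in that pair the Cd-treated library was lower in most of them. Whether the species differ in this was not tested.

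The strongest shifts that recurred were sought as transcripts that differed by at least 2-fold in the same direction in both letters (log2 ratio of CPM with a prior count of 2). There were 46 with Cd higher (0.231%) and 30 with Cd lower (0.15%). The same rule applied across letters in place of doses gave 79 with B higher and 95 with A higher. Repeated 2-fold differences were thus fewer between doses than between letters. A difference between letters that recurs at both doses does not measure the spread between replicates, so the letter counts are no measure of noise for the dose counts. Far more transcripts reached 2-fold in 1 letter without doing so in the same direction in the other. These were 359 higher and 455 lower in A, and 482 higher and 334 lower in B. Included in these counts are transcripts that reached 2-fold in opposite directions, 17 higher in A and lower in B, and 50 the reverse.

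The split of 46 higher and 30 lower depended on how low counts and library sizes were treated. With a prior count of 0.5 it was 95 and 108, and with total counts in place of normalisation factors it was 47 and 18. With at least 10 reads in each shoot library it was 18 and 2, beside 8 with B higher and 46 with A higher across letters.

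**Figure D3:**
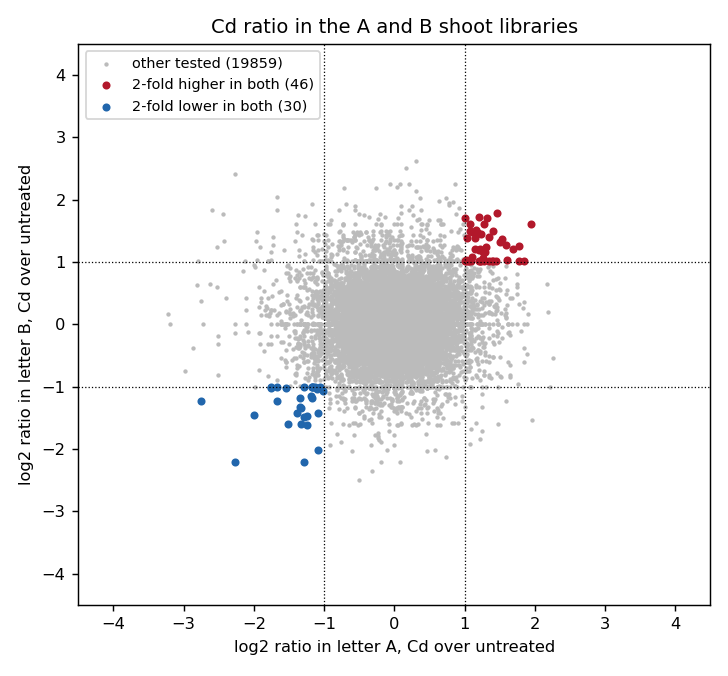
The log2 ratio of Cd-treated over untreated CPM in letter A (horizontal axis) and letter B (vertical axis) for the tested shoot transcripts, with dotted lines at 2-fold. The 46 transcripts higher (red) and 30 lower (blue) in both letters lie in opposite corners of a cloud with r = 0.03.

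Most of these shifts came from few reads. Of the 46 with Cd higher, 26 had under 10 CPM and 8 had over 30 CPM, and the median level was 7.66 CPM. Of the 30 with Cd lower, 28 had under 10 CPM and 0 over 30 CPM, and the median was 2.48 CPM. The edgeR fit called 0 of either list. All 8 repeated 2-fold shifts among transcripts at 30 CPM or more therefore had Cd higher.

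The largest repeated shift upward among transcripts with at least 20 reads at the higher dose was c32701_g1. It had 16 and 15 reads in Cd-treated shoots against 5 and 3 reads in untreated shoots. The doses did not overlap, which the rule required, and the log2 fold change was 1.99 (SE 0.69, 95% interval 0.53 to 3.51, edgeR adjusted p = 1). Next came c38107_g2, with 13 and 12 reads in Cd-treated shoots against 4 and 3 reads in untreated shoots, a log2 fold change of 1.86 (SE 0.61). A second transcript of its component, c38107_g1, had 17 and 20 reads in Cd-treated shoots against 21 and 14 in untreated shoots, so the shift was not seen in both.

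The largest downward shift by the same rule was c39254_g1, with 2 and 6 reads in Cd-treated shoots against 15 and 20 reads in untreated shoots. Its log2 fold change was -2.04 (SE 0.58, 95% interval -3.30 to -0.83, edgeR adjusted p = 1). This was a root transcript by level, with 1139 and 1211 reads in Cd-treated roots and 1457 and 2082 reads in untreated roots. Next came c42308_g1, with 4 and 1 reads in Cd-treated shoots against 14 and 7 in untreated shoots, a log2 fold change of -1.95 (SE 0.80).

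Root transcripts were common in the downward list. Of its 30 members, 25 (83.3%) were higher in untreated roots than in untreated shoots, beside 52.2% of all tested transcripts. The filter on low counts also took in root reads, and of the 6626 tested transcripts under 10 CPM in shoots, 72.2% were higher in untreated roots. At least 10-fold higher in roots were 6 of the 30 (20%), beside 15.4% of those 6626. The 6626 include transcripts with few or no shoot reads. With at least 10 shoot reads and under 10 CPM, 6 of 26 members (23.1%) were 10-fold higher in roots, beside 3.47% of 5071 tested transcripts. Higher in roots at all were 88.5% of these 26, beside 63.7% of the 5071. The 2 sets were not matched in level, with median shoot levels of 2.48 CPM for the 26 and 5.97 CPM for the 5071. A transcript lower in shoots depends more on root reads to pass the filter, so these shares do not show a root excess particular to the list. A list of 56 root transcripts, chosen after the data were seen for having at least 100 reads in each Sedum plumbizincicola root library and 0 reads in Sedum alfredii shoots, was summed in each library. It came to 1283 and 1455 CPM in Cd-treated shoots against 1493 and 1431 CPM in untreated shoots, and to between 12082 and 22869 CPM in roots. Reads were present for 27 and 38 of the 56 in Cd-treated shoots and for 40 and 36 in untreated shoots, so the doses overlapped. The part of root RNA in the downward shifts was not tested. Without transcripts at least 10-fold higher in untreated roots, an alternative added after the data were seen, 46 were higher with Cd and 24 lower.

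The 5 transcripts with the smallest p-values were all higher with Cd and better covered than most of the repeated shifts. The first had 159 and 117 reads in Cd-treated shoots against 52 and 50 reads in untreated shoots, or 92.2 and 67.8 CPM against 27.8 and 28.8 CPM. Every Cd-treated value lay above every untreated one, and the log2 fold change was 1.497 (SE 0.23, 95% interval 1.003 to 1.996, edgeR adjusted p = 0.222). In roots the same transcript had 179 and 145 CPM with Cd and 172 and 176 CPM without. The second had 285 and 208 reads in Cd-treated shoots against 120 and 78 reads in untreated shoots, a log2 fold change of 1.39 (SE 0.24, edgeR adjusted p = 0.381). The next 3 had log2 fold changes of 1.03 to 1.49 and an edgeR adjusted p of 0.947 each. The doses did not overlap for any of the 5, which were picked by p, beside 13.6% of all tested transcripts that did not overlap with Cd higher. Of the 5, 0 passed the threshold in this fit, which had no replicate block.

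**Figure D4:**
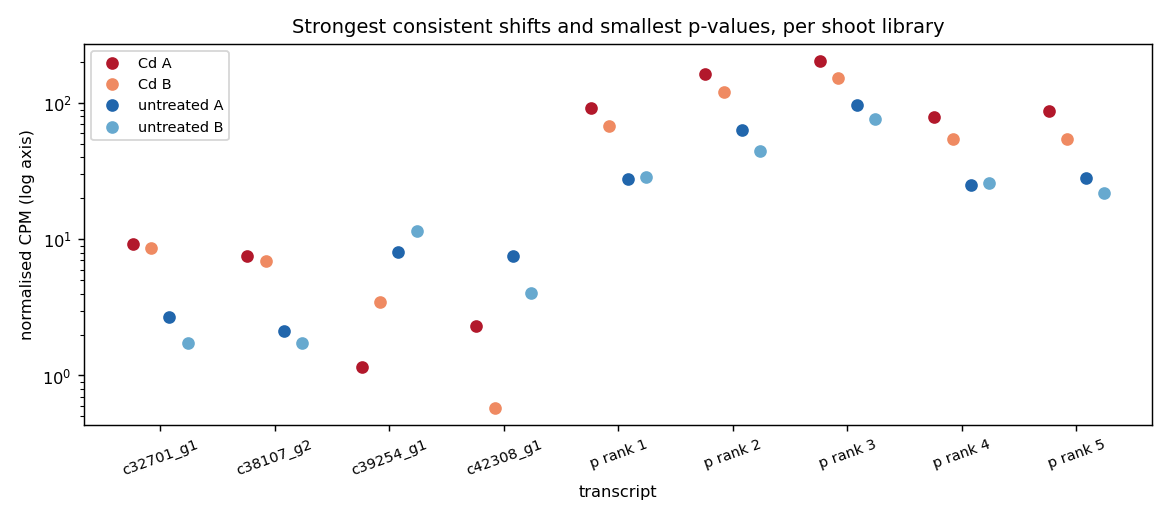
Normalised CPM (log axis) in each Cd-treated and untreated shoot library for the strongest repeated shifts in each direction and, by rank, the 5 transcripts with the smallest p-values. That the doses do not overlap was required of the repeated shifts, and it also holds for the 5 others, which were picked by p. The repeated shifts lie under 12 CPM in every library while rank 1 reaches 92.2 CPM.

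Transcripts read at 1 dose only were many but thinly covered. Any read at all was confined to Cd-treated shoots for 2774 of the 66584 transcripts and to untreated shoots for 2770. With at least 10 reads in sum at one dose and 0 at the other, 2 were seen in Cd-treated shoots only, with at most 12 reads, and 5 in untreated shoots only, with at most 33. The 33 reads all came from untreated library A, with 0 in untreated library B. Split by letter instead, 3 transcripts with at least 10 reads were seen in A only, with at most 33 reads, and 2 in B only, with at most 12.

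Transcripts that moved with Cd elsewhere in the series were looked up in the shoot. In roots the same edgeR fit called 415 of 19935 (2.08%), 21 higher (0.105%) and 394 lower (1.98%) with Cd. Of the 21 higher in roots, 14 had at least 10 shoot reads, and their shoot median log2 fold change was -0.04, beside a root median of 1.94. A 2-fold change in the shoot was excluded for 6 of these 14 and a 4-fold change for 13. Of the 394 lower in roots, 288 had no shoot read and 9 had at least 10. Those 9 had a shoot median of -0.23 beside -2.06 in roots, with a 2-fold change excluded for 5 and a 4-fold change for 6. Of the 9, 8 lay below 0 in shoots, and 3 of them had shoot log2 fold changes of -2.50, -1.85 and -1.82, the first of these at least 2-fold lower in both letters. All transcripts with at least 10 shoot reads, 18380 in number, had a median of -0.02, with a 2-fold change excluded for 58.0% and a 4-fold change for 95.5%. Below 0 lay 9809 of the 18380.

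In Sedum alfredii shoots, 252 of 18679 transcripts with at least 10 reads (1.35%) were 4-fold or more higher in the Cd-treated library and 122 (0.653%) 4-fold or more lower, with no test possible. Of the 252, 129 had at least 10 reads in Sedum plumbizincicola shoots, where their median log2 fold change was -0.22 and 82 of the 129 lay below 0. Among all 18380 transcripts with at least 10 shoot reads, 9809 lay below 0. A 4-fold change was excluded for 105 of the 129 (81.4%) and a 2-fold change for 43 (33.3%), both shares under those of all transcripts with at least 10 shoot reads. Of the 122, 75 had enough reads, with a median of -0.14, a 4-fold change excluded for 73 (97.3%) and a 2-fold change for 40 (53.3%). In neither list was a transcript called in Sedum plumbizincicola shoots. The transcript with the third smallest p there belonged to the 252, with a log2 fold change of 1.03 (95% interval 0.59 to 1.48, edgeR adjusted p = 0.947) beside a ratio of 2.11 in Sedum alfredii shoots on the log2 scale. So did c39254_g1, the largest repeated downward shift, which went the opposite way at -2.04 beside 3.32. At an unadjusted edgeR p under 0.05, 2 of the 129 were higher and 9 lower. Of all 18380 transcripts with at least 10 shoot reads, 235 were higher and 216 lower.

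**Figure D5:**
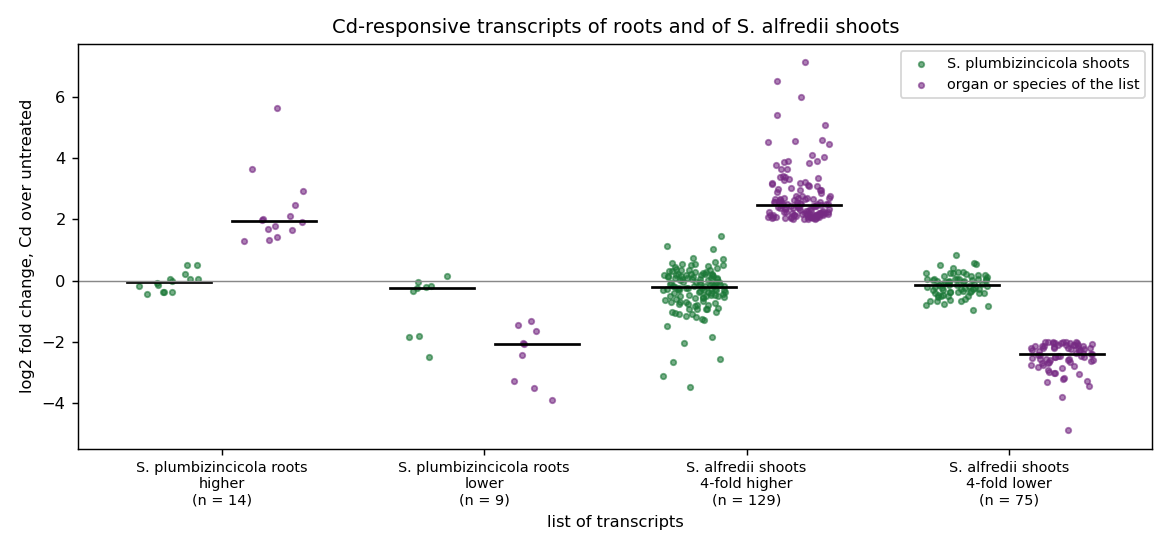
The log2 fold change, Cd-treated over untreated, in Sedum plumbizincicola shoots (green) and in the organ or species that defined each list (purple), for members with at least 10 shoot reads; bars are medians and the horizontal scatter has no meaning. The purple values chose the lists, and the green medians lie between -0.23 and -0.04.

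Whether shoots responded differently from roots was tested as an interaction in the same edgeR fit. It was called for 0 of 19935 transcripts (0%), where the lowest adjusted p was 0.065 and 528 transcripts had an unadjusted p under 0.05. By DESeq2 the count was 1, by limma on log2(TPM + 1) it was 332. Calls in roots beside none in shoots thus do not show, by this test, that single transcripts differed between organs. Of the 394 transcripts lower in roots, 385 had under 10 shoot reads, so for these the test could hardly detect a difference. A lack of interaction calls there does not show equal responses either. Among the 4910 transcripts with at least 30 CPM in both organs, a 2-fold change was excluded for 4639 (94.5%) in shoots and 4451 (90.7%) in roots. The median absolute log2 fold change of these transcripts was 0.12 in shoots and 0.16 in roots, and 67 in shoots and 201 in roots had an unadjusted p under 0.05. Their letters differed by a median of 0.20 in Cd-treated and 0.22 in untreated shoots, and by 0.24 at both doses in roots.

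A second readout, the isoform-weighted length, was also compared. It is the mean length of a transcript's isoforms weighted by how the reads were assigned to them, and shifts when reads move between long and short isoforms. With limma, 0 of 10201 transcripts (0%) passed an adjusted p of 0.05, 634 had an unadjusted p under 0.05, and the smallest adjusted p was 0.215. The 95% interval lay within 1.1-fold in either direction for 5645 of them (55.3%). A length at least 1.1-fold longer in Cd-treated shoots in both letters was seen for 204 transcripts and one as much shorter for 200. Across letters at both doses the counts were 198 and 208.

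The largest decrease in length, chosen after its values were seen, was that of c45773_g1. Its reads were assigned to isoforms of 1769 and 1855 bases on average in Cd-treated shoots against 4258 and 4259 bases in untreated shoots. The doses did not overlap and the log2 difference was -1.23, with a limma adjusted p of 0.215. The 4 libraries held 43 and 42 reads for it in Cd-treated shoots and 32 and 38 in untreated shoots.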

How the data were processed

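RNA of roots and shoots was sequenced after 3 days at 0 or 10 µM CdCl2, per the labels' protocols. FastQC, Bowtie and RSEM are named in the submitters' processing notes. The making of the transcript set and all settings are not given there. The deposited tables hold, for 66584 clusters and per the file headers, the isoform-weighted length, expected count, TPM and FPKM. The deposited expected counts, whole in 99.0% to 99.2% of values above 0 per shoot library (no tolerance), were rounded. The deposited TPM ranked levels and entered an alternative test. The deposited FPKM were not used.

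edgeR 4.0.16 (R 4.3.3) fitted the 8 Sedum plumbizincicola libraries by group (TMM, filterByExpr, robust quasi-likelihood F-test, two-sided), with 4 residual degrees of freedom and a biological coefficient of variation of 0.177. Its Wald standard errors gave intervals, which are per transcript, and paired one-sided tests for exclusion. limma 3.58.1 tested log2 length where each shoot library had 20 reads. DESeq2 1.42.0 was an alternative. Adjustment was Benjamini-Hochberg at 0.05. Sedum alfredii ratios used a prior count of 2. Tests were checked on simulated counts.

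Members, lists and tests were chosen with earlier results of these data known. Named were the 10 highest by mean TPM and, among transcripts with at least 20 reads at the higher dose and no overlap, the 2 largest repeated shifts each way. Other named transcripts were chosen after their values were seen. Binomial intervals and the 3-read limit cover counting error only.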

Additional observations from a re-analysis of the deposited data

How the results depend on the processing

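Calls in shoots numbered 0 under most settings listed, but 22 with no filter on low counts, 1 with DESeq2, and 0 to 5 when 1 library was left out (5 without untreated shoot B, 2 without untreated root A). The letters are shared between doses, but the labels do not say that a letter marks shared plants or a shared batch. With the letter as a replicate block the count was 5, which held 4 of the 5 transcripts with the smallest p-values, and with the block in the 4 shoot libraries alone it was 116 (20 of them among the 46 repeated upward shifts and 0 among the 30 downward). Deviations of same-letter libraries correlated at 0.22 between the shoot doses over all transcripts and at 0.44 over the 4910 at 30 CPM or more in both organs (0.33 and 0.57 between the root doses), a hint from the data. The number with a 2-fold change excluded ranged from 4228 to 10886 with 1 library left out; it was 17570 at a bound of 4-fold and 0 at 1.5-fold. The interaction was called for 12 transcripts with no filter, 6 with the replicate block, 1 with DESeq2, 332 with limma on log2(TPM + 1), and 0 to 1 with 1 library left out. Repeated shifts, higher and lower, numbered 95 and 108 with a prior count of 0.5, 17 and 3 with a prior count of 5, 18 and 2 with at least 10 reads in each library, and 297 and 232 at 1.5-fold. With TPM + 1 there were 70 higher, and with total counts only 18 lower. The cause of these differences was not tested. Ranked by CPM in place of TPM, 4 of the 10 most abundant were shared. No length was called under any setting run. The share with a 2-fold change excluded was 3.94% under 10 CPM and 92.3% at 30 CPM or more.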
